A study of Mus musculus with 8 samples.

Results

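The H3K27Ac regions described here lie at 9 mouse genes of adrenergic and cAMP signalling. They comprise the receptors *Adrb1*, *Adra1a* and *Adra1b*, the adenylyl cyclases *Adcy5* and *Adcy6*, the phosphodiesterases *Pde3a* and *Pde4d*, and the A-kinase anchoring proteins *Akap6* and *Akap13*. A peak was taken as belonging to a gene where its centre was nearest to a curated RefSeq transcription start of that gene on mm10, which gave 80 of the 45987 peaks in the deposited table. Ventricles of postnatal day 7 (P7) mice on a C57BL/6J background were compared, from 2 Arid1a f/f control hearts and 2 *Arid1a cKO* hearts, the latter carrying αMHC-Cre in addition to the floxed alleles. Both groups thus shared the floxed alleles, and the controls had no Cre. The α-myosin heavy chain promoter drives the Cre in cardiomyocytes, so that the other cell types of the ventricle keep ARID1A, the DNA-binding subunit of the SWI/SNF chromatin remodelling complex. H3K27Ac, acetylation of lysine 27 of histone H3, marks promoters and enhancers that are in use. Chromatin of each heart was sequenced after precipitation with an antibody to this mark and, as input, with no antibody. The controls were littermates, and pups of both sexes were used in the study.

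The deposited table gave the authors' mean of each group for every peak, as the log2 of normalized reads, and no value of a single heart. There was therefore no spread between hearts, no standard deviation and no test, and the depth of the libraries is unknown. All values below are the authors' means, written back as normalized reads per peak, and each difference is the *Arid1a cKO* mean minus the control mean on the log2 scale. A peak was counted as lower or higher where its difference reached 1 log2 unit, and 3 normalized reads served as the floor, so that a fold against a mean below it is only a lower bound. In whole ventricles, fewer cells of a type and less of the mark per cell cannot be told apart.

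Noradrenaline and adrenaline raise the rate and force of the heartbeat through β-adrenergic receptors, which couple to the stimulatory G protein and adenylyl cyclase. The cyclase makes cAMP, which activates protein kinase A, and the kinase phosphorylates calcium channels, phospholamban and sarcomere proteins. Phosphodiesterases degrade cAMP, and A-kinase anchoring proteins hold the kinase beside its substrates, so that the signal stays local. The α1-adrenergic receptors couple to a different G protein and to phospholipase C, and in cardiomyocytes they are known for hypertrophic growth.

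By the nearest start, the H3K27Ac signal was lower in *Arid1a cKO* hearts at the cyclases and at 2 of the 3 receptors. It was higher or little different at the phosphodiesterases. Over the 80 peaks, summed reads were 14900 in control and 12100 in *Arid1a cKO* hearts, or 81.1% of control, against 94.3% over the 45980 peaks that lie on chromosomes and so have a nearest gene. The median difference was −0.28 against 0.01 over all of those peaks, and 49 of the 80 peaks (61.3%) lay below 0 against 48.3%. Of the 80 peaks, 13 (16.2%) were lower by at least 1 log2 unit, where 10.6% of all peaks were, and 3 (3.75%) were higher by as much, where 4.57% of all peaks were. The 13 lower peaks belonged to 3 genes, with 3 at *Adra1b*, 4 at *Adcy5* and 6 at *Akap13*. The share of higher peaks thus lay near that of all peaks, and that of lower peaks above it. Without *Akap13*, 7 of the remaining 57 peaks (12.3%) were lower, closer to the share over all peaks. Both values also depended on the assignment. Of the 110 peaks inside the transcribed regions of the 9 genes, 11 (10%) were lower, near the share over all peaks, and the median was −0.04. Closest to the limit on the lower side were *Akap13* peaks at −1.12 and −1.07 inside it, and an *Akap13* peak at −0.94 and the *Adcy5* start peak at −0.91 outside it. On the higher side an *Akap13* peak at 1.21 lay inside, and an *Akap6* peak at 0.73 outside.

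By role, 14 of 15 cyclase peaks and 12 of 16 receptor peaks lay below 0, with medians of −0.68 and −0.40. *Adcy5* supplied 13 of the 15 cyclase peaks. Of the 12 phosphodiesterase peaks, 9 lay above 0 and the median was 0.34. Taken by position, the medians were 0.18 over 24 *Pde3a* peaks and −0.18 over 21 *Pde4d* peaks. The 37 peaks of the anchoring proteins were divided, with 20 below 0, 17 above and a median of −0.07. Strong peaks more often lay below 0 than the 58 weaker ones, whose median was −0.06. Of the 22 peaks with at least 200 control reads, 18 lay below 0 and 10 (45.5%) were lower by at least 0.5, with a median of −0.44. Among all 7710 peaks of that strength, 61.7% lay below 0, 11.0% were lower by at least 0.5 and the median was −0.06. Of the weaker peaks, 53.4% lay below 0 at these genes and 45.6% over all peaks, so the contrast by strength was present there too. Strength was taken from the control reads, which also enter the difference, so this choice can itself favour values below 0. At the limit of 1 log2 unit, 2 of the 22 strong peaks (9.09%) and 11 of the 58 weaker ones (19%) were lower. Over all peaks, 3.83% of the strong and 12% of the weaker ones were lower by as much.

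**Figure D1:**
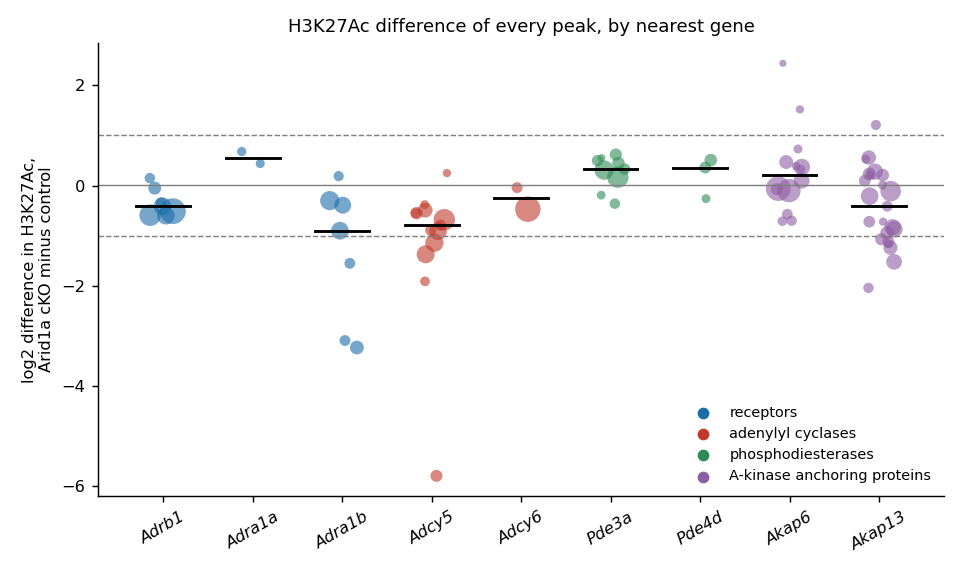
The log2 difference in H3K27Ac (vertical axis, *Arid1a cKO* minus control) of each of the 80 peaks, by nearest gene. Each point is a peak, its area grows with the control reads, colours give the gene's role, the short bars are gene medians, the dashed lines mark 1 log2 unit and the grey line the median of all peaks. *Adcy5* has 12 of its 13 peaks below 0, while 7 of the 9 *Pde3a* peaks are above 0.

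**Figure D2:**
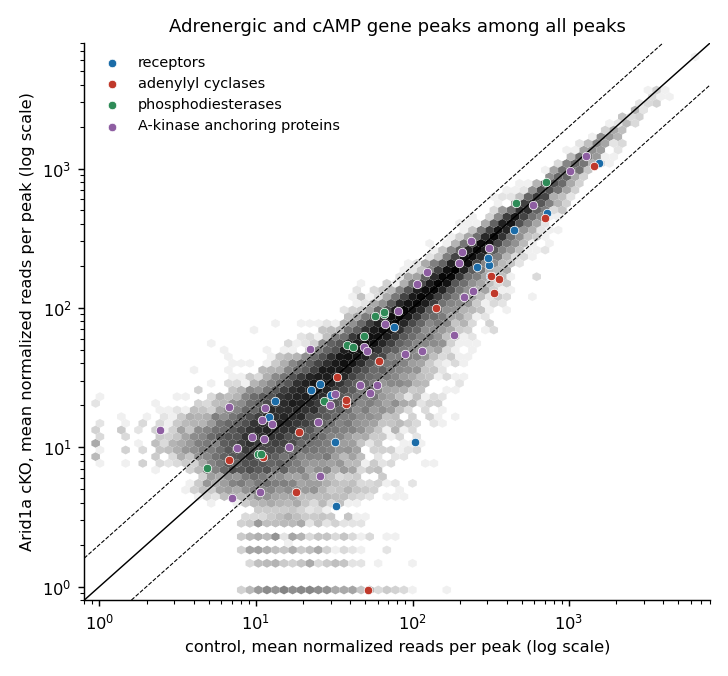
Mean normalized reads per peak in control (horizontal axis) and *Arid1a cKO* hearts (vertical axis), both on log scales. Grey hexagons count all peaks, coloured points are the 80 peaks by role, the solid line marks equal means and the dashed lines 1 log2 unit. The points far below the lower dashed line are upstream peaks of *Adra1b* and *Adcy5*, and the lowest point is the *Adcy5* peak with 52.3 control and 0.946 *Arid1a cKO* reads.

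The region with the most extreme difference was an intergenic peak 24.8 kb upstream of *Adcy5* at chr16:35129483-35130660. It held 52.3 reads in control and 0.946 in *Arid1a cKO* hearts, the latter under the floor, so the signal was at least 17.4-fold lower. Its central 200 bases, at chr16:35129972-35130171 on the plus strand of GRCm38.p6 (the assembly also called mm10), are shown because the mark was nearly absent there in *Arid1a cKO* hearts:

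*Adcy5* upstream peak: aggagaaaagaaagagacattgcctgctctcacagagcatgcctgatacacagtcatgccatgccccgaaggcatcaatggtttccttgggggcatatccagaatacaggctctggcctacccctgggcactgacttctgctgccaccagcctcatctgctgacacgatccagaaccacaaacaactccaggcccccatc

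No capitals are used there, because none of the 5 motifs searched over the whole peak was found in it. These were the MEF2 core (CTA, then 4 letters that are A or T, then TAG), the estrogen-related receptor site TCAAGGTCA, the ZEB E-box CAGGTG, the TEAD core CATTCC and the cAMP response element TGACGTCA, each on both strands. MEF2 factors and estrogen-related receptors act in cardiomyocyte maturation, TEAD factors are the DNA-binding partners of YAP, and CREB binds the cAMP response element downstream of protein kinase A.

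Of the 13 lower peaks, 6 held a MEF2 core, against 11 of the other 67. Per length of sequence this came to 0.197 matches per kb in the lower peaks and 0.0462 in the others. Over all peaks the rates were 0.0586 per kb in the lower ones and 0.0312 in the rest. The 6 sites are shown with 20 bases on each side and the core in capitals, since they lie in peaks counted as lower at *Adra1b*, *Adcy5* and *Akap13*:

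*Adra1b* upstream, chr11:43961116-43961165: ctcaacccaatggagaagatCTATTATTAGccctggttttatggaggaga

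*Adcy5* intron, chr16:35203465-35203514: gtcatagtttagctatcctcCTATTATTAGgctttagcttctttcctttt

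*Adcy5* intron, chr16:35223565-35223614: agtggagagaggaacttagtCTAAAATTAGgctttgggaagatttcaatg

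*Akap13* intron, chr7:75494396-75494445: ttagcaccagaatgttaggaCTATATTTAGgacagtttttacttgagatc

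*Akap13* intron, chr7:75500000-75500049: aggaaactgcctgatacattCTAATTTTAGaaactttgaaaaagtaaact

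*Akap13* intron, chr7:75549986-75550035: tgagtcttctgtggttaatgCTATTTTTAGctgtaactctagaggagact

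All 6 are shown on the plus strand, because this pattern matches on both strands wherever it occurs, so the strand carries no information. The *Adra1b* site and the first *Adcy5* site share the same 10 core letters, of which only 4 can vary. A *Pde3a* peak with a difference of 0.55 also holds these letters. Only 1 of the 6, that at chr7:75549986-75550035, fell in the central 300 bases of its peak. In that central window a MEF2 core was found in 1 of the 80 peaks (1.25%) and in 1.63% of all peaks, so the windows of equal length showed no excess. Wide peaks away from the lower group also held the core, including both strong *Akap6* peaks, whose differences were −0.10 and −0.06. The estrogen-related receptor site was found in none of the 13 lower peaks and in 5 of the other 67. Over all peaks it was in 8.43% of the lower ones and 7.21% of the rest. A TEAD core was present in 11 of the 13 and 44 of the 67, at 0.82 and 0.592 matches per kb. Over all peaks the shares were 62.1% and 65.8%, at 0.655 and 0.608 per kb. The E-box was in 8 and 50 peaks, at 0.623 and 0.705 per kb. Over all peaks its shares were 68.7% and 69.4%, at 0.865 and 0.768 per kb. By share for the receptor site and the TEAD core, and by rate for the E-box, the members differed in direction from all peaks. In the central window, the estrogen-related receptor site was found in 1.07% of all peaks and the E-box in 17.7%. The TEAD core was found there in 16.7% and the cAMP response element in 0.661%. The members' shares in that window were 0% for the receptor site, 13.8% for the E-box, 18.8% for the TEAD core and 0% for the response element. The only cAMP response element of the 80 peaks stood at the upstream edge of the *Adrb1* start peak, at chr19:56721039-56721086 on the plus strand, shown with the element in capitals:

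*Adrb1* start peak: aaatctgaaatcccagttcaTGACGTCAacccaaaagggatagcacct

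*Adrb1* encodes the β1-adrenergic receptor, the main β-receptor of the cardiomyocyte. Its 7 peaks had a median difference of −0.41, and the signal was lower by a similar amount in each of the 5 peaks from the start onward. The strongest, chr19:56721039-56732859, covers the single short gene and its start, and held 1550 reads in control and 1090 in *Arid1a cKO* hearts, a difference of −0.51. The next 4 downstream held 309, 724, 30.1 and 302 reads in control and 204, 481, 23.8 and 228 in *Arid1a cKO* hearts. Together these 5 peaks spanned to 38.8 kb past the start and had 69.4% of the control signal, within a narrow range of differences from −0.60 to −0.34. The 2 peaks 20.9 and 18.2 kb upstream held 102 reads in both groups when summed, with differences of 0.15 and −0.05. No *Adrb1* peak reached 1 log2 unit. With predicted transcripts added, only 1 peak, at −0.51, stayed nearest to *Adrb1*. The rest of its peaks then lay nearer to a predicted start of another gene.

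*Adra1b* encodes the α1B-adrenergic receptor, and its upstream and internal peaks differed between the groups by unlike amounts. The 3 intergenic peaks upstream of it were all lower. The peak at chr11:43960573-43962196, 60.1 kb upstream of the outer start, held 103 reads in control and 10.9 in *Arid1a cKO* hearts (−3.23). The peak at chr11:43925389-43926698, 24.8 kb upstream, held 32.4 and 3.81 reads (−3.09). The peak between them, chr11:43928696-43929721, held 32 and 10.9 reads (−1.55). Summed over the 3, *Arid1a cKO* hearts had 15.4% of the control signal, whereas the 4 peaks inside the gene that are nearest to its starts had 72.4%. With the 3 internal peaks nearer to *Ttc1* added, 7 peaks lay within *Adra1b*, with 1250 and 949 reads, a median of −0.30 against −0.90 by the nearest start, and 1 lower peak of 8.4 and 1.91 reads. Among the 4, the strongest was the intronic peak chr11:43819642-43824433 with 443 and 360 reads (−0.30), and the peak over the inner start, chr11:43833108-43837407, held 258 and 197 reads (−0.39). The outer start lay under no peak. *Adra1a*, which encodes the α1A-adrenergic receptor, had only 2 weak intronic peaks, with 13.3 and 12.2 reads in control and 21.3 and 16.6 in *Arid1a cKO* hearts, differences of 0.68 and 0.44. Its start lay under no peak, and the signal per kb over its peaks, 11.1 reads in control, was well under the 61.2 of *Adra1b* and the 84.8 of *Adrb1*.

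*Adcy5* encodes adenylyl cyclase 5, which with adenylyl cyclase 6 makes most of the cAMP of the ventricular cardiomyocyte. Of its 13 peaks 12 lay below 0, and the summed signal was 2090 reads in control and 1120 in *Arid1a cKO* hearts, or 53.4% of control, the lowest percentage of the 9 genes. Its median was −0.79, and among 403 genes with at least 13 peaks, 15 (3.72%) had a median as low. The start peak chr16:35154123-35158992 held 315 reads in control and 168 in *Arid1a cKO* hearts (−0.91). Among the 12020 peaks of the table that cover a start, 1.96% were as low. Just inside the gene, the small peak chr16:35160278-35161208 held 17.9 and 4.76 reads (−1.91). A row of 3 wide intronic peaks followed at 46.4, 56.8 and 69.3 kb. The middle of these, chr16:35204995-35218304, was the strongest of the gene with 704 and 440 reads (−0.68). Its neighbours chr16:35198187-35204337 and chr16:35220770-35227649, which hold the 2 MEF2 cores shown above, had 331 and 128 reads (−1.37) and 357 and 162 reads (−1.14). The single peak above 0 was weak, with 6.77 and 8.06 reads. With predicted transcripts added, 6 peaks stayed nearest to *Adcy5*, with a median of −0.73. *Adcy6* had a strong peak over its start, chr15:98600693-98610632, with 1450 reads in control and 1050 in *Arid1a cKO* hearts (−0.47), and an upstream peak 8.84 kb away with 32.7 and 31.8 reads (−0.04). Among all peaks over a start, 5.94% were as low as that of *Adcy6*.

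The 6 genes with a peak over a start were *Adrb1*, *Adra1b*, *Adcy5*, *Adcy6*, *Pde3a* and *Akap13*. None of these peaks reached 1 log2 unit, and 1.70% of all peaks over a start were lower by as much. Their median was −0.43, and 5 of the 6 lay below 0, where the median over all start peaks was 0.01 and 48.0% lay below 0. The *Pde3a* start was the exception. All of the 13 lower peaks lay away from a start, 8 in introns and 5 between genes. Over all peaks, 4674 of the 4878 lower ones lay away from a start as well. Of the peaks away from a start, 17.6% of the 74 at these genes and 13.8% of all were lower. The 250 bases before the start of *Adcy5* (under a peak) and of *Akap6* (under none) are shown on the plus strand as RefSeq gives them for GRCm38.p6, because they differ in base composition, with 78.0% and 43.6% G or C:

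*Adcy5*, chr16:35154614-35154863: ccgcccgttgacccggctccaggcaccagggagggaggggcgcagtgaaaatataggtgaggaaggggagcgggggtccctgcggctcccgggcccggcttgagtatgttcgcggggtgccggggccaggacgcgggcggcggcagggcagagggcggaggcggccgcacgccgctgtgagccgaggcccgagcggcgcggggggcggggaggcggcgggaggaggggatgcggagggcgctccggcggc

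*Akap6*, chr12:52699133-52699382: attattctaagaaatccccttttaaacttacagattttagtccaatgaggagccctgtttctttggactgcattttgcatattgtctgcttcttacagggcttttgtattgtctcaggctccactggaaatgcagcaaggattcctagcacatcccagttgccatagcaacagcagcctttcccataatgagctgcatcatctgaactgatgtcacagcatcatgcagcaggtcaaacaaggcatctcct

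Promoter windows of 300 bases, reaching 50 bases past the start, were found for 6 of the 9 genes. None of the 5 motifs was present in those of *Adrb1*, *Adra1b*, *Adcy5*, *Akap6* and *Akap13*. That of *Pde4d* held an E-box, as did 20.2% of 32851 mouse promoters of that length. The shares over those promoters were 0.557% for the MEF2 core, 0.423% for the estrogen-related receptor site, 14.7% for the TEAD core and 1.79% for the cAMP response element.

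**Figure D3:**
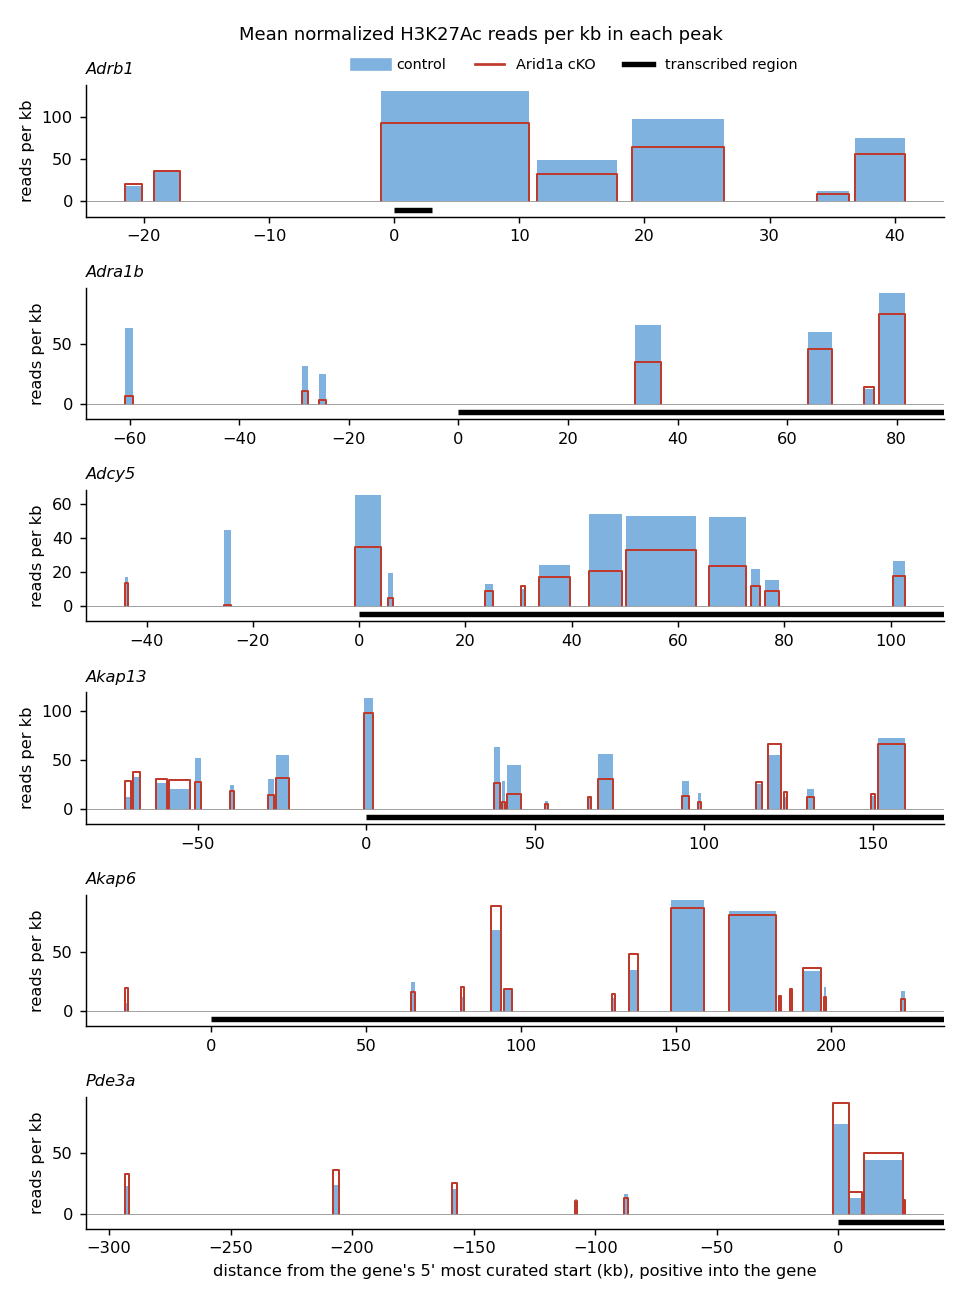
H3K27Ac reads per kb (vertical axis) in each peak of 6 genes, against the distance in kb from the outermost curated start (horizontal axis, positive into the gene). Blue fills are control means, red outlines *Arid1a cKO* means, and the black bar is the transcribed region where it falls in view. The 3 *Adra1b* peaks upstream of the gene hold 15.4% of the control signal in *Arid1a cKO* hearts and the *Adcy5* peak 24.8 kb upstream lies under the floor of 3 reads, whereas the outlines at *Pde3a* mostly exceed the fills.

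*Pde3a* encodes phosphodiesterase 3A, the cAMP phosphodiesterase that milrinone inhibits and that acts at the sarcoplasmic reticulum. Of its 9 peaks 7 lay above 0, with a median of 0.33, and the summed signal was 1410 reads in control and 1680 in *Arid1a cKO* hearts. The start peak chr6:141247318-141253530 held 455 and 564 reads (0.31), and 13.3% of all start peaks were as high. The strongest peak, chr6:141259818-141275949 in the first part of the gene, held 709 and 798 reads (0.17). No peak reached 1 log2 unit in either direction, and the range was −0.36 to 0.62. Farther inside the gene lie 20 further peaks that are nearer to the starts of *Gm10400* or *Slco1c1*. With those counted by position, *Pde3a* had 24 peaks within its transcribed region, a median of 0.18 and 2 lower peaks.

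*Pde4d* encodes phosphodiesterase 4D, which binds β-adrenergic receptor and ryanodine receptor complexes. It had 3 peaks by the nearest start, and the curated start itself lay under none. The peaks 155 and 128 kb upstream held 65.8 and 49.2 reads in control and 93.7 and 63.1 in *Arid1a cKO* hearts, differences of 0.51 and 0.36. The peak nearest to the start, chr13:108685616-108686915, held 10.8 and 9 reads (−0.26). These values describe little of the gene, because its transcribed region of 1300 kb contains the microRNA genes *Mir582* and *Mir1904*, whose starts claim most of the peaks. Taken by position, 21 peaks lay within *Pde4d*, with 2200 reads in control and 2000 in *Arid1a cKO* hearts and a median of −0.18. The sign of the *Pde4d* median thus depended on how peaks were assigned. Predicted internal starts of *Pde4d* lay under 2 of these peaks, and they differed, with 103 and 119 reads (0.21) at chr13:109439841-109441996 and 202 and 108 reads (−0.90) at chr13:109684806-109688138.

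*Akap6* encodes mAKAP, which anchors protein kinase A at the nuclear envelope of the cardiomyocyte together with PDE4D and adenylyl cyclase 5. Its summed signal was equal in the groups, with 3000 reads in control and 3010 in *Arid1a cKO* hearts over 14 peaks. The 2 strong intronic peaks chr12:52847610-52858554 and chr12:52866538-52881598 carried most of it, with 1020 and 955 reads (−0.10) and 1280 and 1230 reads (−0.06). The former covers a predicted internal start, and the curated start lay under no peak. The peak nearest to the curated start, chr12:52671522-52672496 at 27.4 kb upstream, held 6.77 and 19.4 reads (1.52). An exonic peak at chr12:52886105-52886824 held 2.45 and 13.3 reads, and with the control mean under the floor it was at least 4.42-fold higher. Both higher peaks were among the weakest of the gene.

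*Akap13* encodes AKAP-Lbc, an anchoring protein that is also an exchange factor for the small GTPase RhoA and lies downstream of α1-adrenergic receptors in cardiomyocytes. Its 23 peaks had a median of −0.41, and 6 of 58 genes with at least 23 peaks (10.3%) had a median as low. Taken by position, 28 peaks lay within *Akap13*, with 2980 reads in control and 2690 in *Arid1a cKO* hearts and a median of −0.05, so the lower median rested on the nearest-start rule. The locus was divided into stretches of unlike direction, which were delimited after the values were seen. The 4 peaks farthest upstream, from 70.7 to 55.5 kb before the start, were all above 0 with 292 reads in control and 404 in *Arid1a cKO* hearts. They include the gene's only higher peak, chr7:75383897-75385721, with 22 and 50.9 reads (1.21). The 4 peaks from 50.0 to 24.9 kb before the start were all below 0, with 394 and 219 reads. The start peak chr7:75454853-75457594 held 309 and 267 reads (−0.21).

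Within the *Akap13* gene, the 8 peaks between 38.6 and 98.6 kb had 45.7% of the control signal, with 650 reads in control and 297 in *Arid1a cKO* hearts, and 5 of them were lower by at least 1 log2 unit. The largest differences at peaks of at least 32 reads were at chr7:75497053-75501211 with 185 and 64.4 reads (−1.52), chr7:75493242-75495072 with 115 and 48.8 reads (−1.24) and chr7:75549060-75550978 with 53.4 and 24.6 reads (−1.12). These 3 peaks hold the *Akap13* MEF2 cores shown above. The remaining lower peak of that strength, chr7:75426360-75428292, lay upstream of the start with 58.9 and 28.1 reads (−1.07). Beyond 116 kb the signal was nearly equal, with 915 and 908 reads over 6 peaks. The strongest peak of the gene, chr7:75606897-75615099, lay in that stretch with 588 and 545 reads (−0.11) and covers a predicted internal start.

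The other genes of the pathway were described with a list of 74 receptors, G proteins, enzymes, effectors and desensitising proteins, of which 66 had peaks. Of their 268 peaks, 36 (13.4%) were lower and 11 (4.1%) higher, with a median of −0.01, again beside 10.6% and 4.57% over all peaks. The G proteins stood at one end, with none of 18 peaks past the limit and a range of −0.25 to 0.38. The cyclases other than *Adcy5* and *Adcy6* had 5 lower peaks of 17, and 4 of these were intronic peaks of *Adcy9*, a cyclase little sensitive to forskolin, with differences from −3.01 to −1.42. The effectors that bind or follow cAMP, other than protein kinase A, had 10 lower and 2 higher peaks of 36. The remaining receptors had 4 lower and 2 higher of 15, protein kinase A and its inhibitors 4 and 1 of 28, the other anchoring proteins 3 and 1 of 35, the other phosphodiesterases 5 and 3 of 76, and the desensitising proteins 5 and 2 of 43.

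Among the effectors, the pacemaker channel genes *Hcn4* and *Hcn2*, whose channels open with cAMP, each had 2 lower peaks. A *Hcn4* intronic peak held 24.9 reads in control and 0.946 in *Arid1a cKO* hearts, at least 8.31-fold lower, and another held 82.7 and 40.8 reads. The *Hcn2* peaks held 195 and 98.4 reads in control and 72.5 and 17 in *Arid1a cKO* hearts. *Popdc3*, of the Popeye family of cAMP-binding membrane proteins, had 3 lower intergenic peaks from −1.68 to −1.16. *Pde1c*, a calcium and calmodulin activated phosphodiesterase, had a strong intronic peak with 516 and 167 reads (−1.63) and an upstream peak with 109 and 11.9 reads (−3.20). *Grk3*, a kinase that desensitises receptors, had 3 lower peaks, including that at its start with 40.5 and 16.1 reads (−1.33). *Adora1*, the adenosine A1 receptor that opposes β-adrenergic signalling, had 2 with 159 and 52.7 reads (−1.59) and 104 and 49.2 reads (−1.08). *Pkia*, an inhibitor of protein kinase A, had 2 with 22 and 1.42 reads, at least 7.34-fold lower, and 17.8 and 8.57 reads.

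Higher peaks of the list were weak. *Rapgef4*, the cAMP-activated exchange factor EPAC2, had 2 with 13.1 and 7.94 reads in control and 42.2 and 21.4 in *Arid1a cKO* hearts, and all of its 9 peaks lay above 0. *Pde4b* had 2 higher peaks of 31, with 6.32 and 5.94 reads in control and 15.2 and 13.7 in *Arid1a cKO* hearts. *Pde7a*, *Akap5*, *Rgs4*, *Pkig* and *Adra1d* had 1 each, with 2.45 to 7.57 reads in control. *Adra1d* also had 2 lower peaks, and its 5 peaks summed to 213 reads in control and 131 in *Arid1a cKO* hearts. *Pde7a* and *Pde4b* also had 1 lower peak each, with sums of 285 and 227 reads and of 6430 and 6030 reads.

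**Figure D4:**
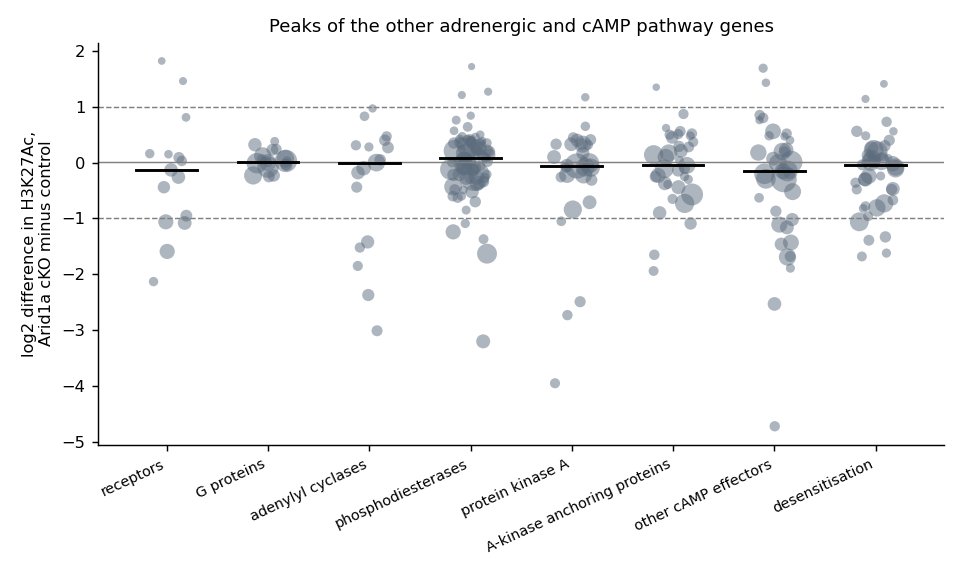
The log2 difference in H3K27Ac (vertical axis, *Arid1a cKO* minus control) of the 268 peaks of the other pathway genes, by role. Points are peaks with area growing with control reads, short bars are medians, dashed lines mark 1 log2 unit and the grey line the median of all peaks. No peak of the G proteins passes the dashed lines, while 10 of the 36 peaks of other cAMP effectors lie below −1.

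Peaks at marker genes of several cell types differed between the groups as well. All 8 cardiomyocyte markers had peaks, with the gene median below 0 for 5 and above 0 for 3. *Myh6* had 3590 reads in control and 3930 in *Arid1a cKO* hearts, whereas *Tnnt2* had 1490 and 1080. Summed over the 8 genes, the reads were 21200 and 19200. Of the cardiomyocyte list, 35 of 54 peaks lay below 0 with a median of −0.16, and the signal per kb was 87.5 and 79.3 reads. Of the fibroblast list, 34 of 37 peaks lay above 0 with a median of 0.38 and 25 and 33.6 reads per kb. The smooth muscle and pericyte list had 12 of 14 peaks above 0 and 35.8 and 45.8 reads per kb, and the endothelial list 40 of 63 peaks above 0 and 47.6 and 49.2 reads per kb. The 4 leukocyte peaks were all above 0, while *Adgre1* and *Lyz2* had none. The 5 peaks at genes of sympathetic neurons and chromaffin cells were all below 0, and *Slc6a2* had none. Of their 817 control reads, 787 lay at *Dbh*, and whether the samples held such cells was not tested. Of the atrial list, 14 of 18 peaks lay above 0, with 3 lower and 5 higher. *Nppa* had 49.5 and 234 reads and *Myl7* 11.3 and 56 reads, *Nr2f2* had 835 and 817 reads over 15 peaks, and *Sln* had no peak. The part of these shifts in the differences at the adrenergic and cAMP genes was not tested. The 2 peaks nearest to *Arid1a* had differences of −0.02 and 0.05, which does not check the deletion, since a floxed exon is not read by this mark.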

How the data were processed

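H3K27Ac ChIP-seq was performed by the authors on P7 ventricles of 2 controls and 2 *Arid1a cKO* mutants, with 4 input libraries. Per the labels, the submitters' processing notes name BWA 0.7.17-r1188, HOMER 4.11, DiffBind 2.12.0, DESeq2 1.24.0 and mm10. Peaks were called with the histone setting against merged inputs and kept if present in at least 2 samples. The authors deposited log2 values of the mean normalized reads per peak, over all samples and per group, with 0 columns of single samples, so depth and replicate error are unknown and precision cannot be given. How the library scaling and the input were applied in these values is not given in the sources used here. Their fold change, p-value and FDR columns hold the authors' own comparison and were not used.

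Group means were subtracted with Python 3.11.15, numpy 2.4.6 and pandas 2.3.3, and figures were drawn with matplotlib 3.10.9. Peaks were assigned to the nearest start of 45754 curated RefSeq transcripts of GRCm38.p6, whose chromosome lengths hold the last peak on each of 21 chromosomes. Peaks on unplaced sequences (7) were not assigned. A peak's class was that of its centre, with promoters from 1000 bp before to 100 bp after a start. Assignment and counting were tested on simulated data. No test across peaks was run, since the groups have 1 mean each. The alternatives varied the limit, the scaling, a filter on low values, a pseudocount, the gene assignment and the annotation.

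The member genes, lists and limits were chosen with earlier results of these data known. Named peaks were, for each gene, the strongest in control, the nearest to a start and those past 1 log2 unit (for *Akap13*, which has more than 6, those with at least 32 reads in the higher group). Of the pathway list, the up to 8 genes with the most lower and the most higher peaks were named, ties by median, and other peaks were chosen after their values were seen. A gene that this rule names is not reported here.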

Additional observations from a re-analysis of the deposited data

How the results depend on the processing

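Of 109 values recomputed under other settings, 51 stayed within 1.5 times (counts and shares) or within 0.01 log2 units (medians), 55 moved by more and 3 changed sign. The 3 are medians of *Pde4d*, which were −0.18 for peaks inside the transcribed region, −0.26 for starts within 100 kb and −0.16 with predicted transcripts added, against 0.36 in the report. With a limit of 0.5 log2 units, 31 of the 80 peaks (38.8%) were lower and 11 (13.8%) higher. Of the 268 pathway peaks, 58 (21.6%) were lower and 34 (12.7%) higher, beside 19.5% and 15.2% of all peaks. With a limit of 1.5, 7 of the 80 peaks (8.75%) were lower and 2 (2.5%) higher. Of the pathway peaks, 20 (7.46%) were lower and 3 (1.12%) higher, beside 6.12% and 1.63% of all peaks. Among peaks with at least 32 reads in the higher group, 10 of 53 member peaks (18.9%) were lower and 1 (1.89%) higher, with a median of −0.41. Of 171 such pathway peaks, 22 (12.9%) were lower and 1 (0.585%) higher, with a median of −0.05. Of all such peaks, 9.23% were lower and 1.70% higher. With 3 reads added to each mean, 11 member peaks (13.8%) were lower and 3 (3.75%) higher, and the members' median was −0.25. Of the pathway peaks, 33 (12.3%) were then lower and 6 (2.24%) higher, beside 9.03% and 2.69% of all peaks. For peaks inside the transcribed region, 11 of 110 member peaks (10%) were lower, and the medians were −0.04 for the members and −0.05 for the pathway list, so the members' shift depended on the rule of assignment. For starts within 100 kb the members' median was −0.44. With predicted transcripts added it was −0.12, and 5 of 233 pathway peaks (2.15%) were higher, beside 4.57% of all peaks. Without *Akap13*, chosen after seeing the data, 7 of 57 peaks (12.3%) were lower and the median was −0.26. Centring on the median of all peaks left every count within 1.5 times its value. Because the deposited table gives 1 mean per group, leaving out a heart could not be run. No paired analysis was possible because the table has no columns of single samples. The unknown depth limits all values, and the weak peaks most.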
